A study of Mus musculus with 18 samples.

Results

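The medullary and the cortical thick ascending limb were compared in mice with a conditional, incomplete deletion of Cldn10 in the tubule. The same segment comparison in mice without the deletion was set beside it. The aim was to describe which segment differences remain, which shrink and which appear without Cldn10. Here, without Cldn10 stands for the conditional knock-out, in which Cldn10 RNA was lowered but not absent. The compared pools were all the retained conditional knock-out (cKO) pools, 8 of the 18 pools of the series. Of these, 3 were dissected from the medullary thick ascending limb (MTAL, pools 16, 18 and 20) and 5 from the cortical thick ascending limb (CTAL, pools 2, 4, 7, 9 and 21). Genes entered the test when they reached 3 CPM (read counts scaled to the library size of the pool) in at least 3 of the 8 pools, which 12044 of the 55401 genes in the table did. In both genotypes the Cldn10 alleles were floxed. The cKO mice carried Ksp-Cre, a recombinase driven by the kidney-specific cadherin promoter that is active along much of the tubule, so the deletion need not be limited to the thick limb. The wild type (WT) mice were floxed littermates without Cre, with 5 MTAL and 5 CTAL pools. All mice were males of 4 to 10 months, labelled as strain C57BL/6J, while the study's methods give a background that was mostly C57BL/6. Each pool came from 1 mouse and held 150 to 200 tubule pieces, taken in the cortex or, within the outer medulla, in its inner stripe. The cKO outer medulla carried calcium deposits, which made its limbs hard to dissect, and 2 further cKO MTAL pools were set aside by the authors after quality control and are not analysed here.

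The thick ascending limb reabsorbs sodium chloride through the NKCC2 cotransporter and leaves water behind, which builds the medullary osmotic gradient and dilutes the urine. Its tight junctions hold different claudins along its length. Claudin-10b forms a sodium-permeable pore that prevails in the medullary segment, whereas claudin-16 and claudin-19 form the calcium and magnesium pathway that prevails in the cortical segment. Cells of the outer medulla also live in a more concentrated interstitium than those of the cortex and accumulate organic osmolytes.

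Cldn10 (chr14:118787908-118875489, GRCm38, plus strand) was lower in the cKO pools than in every WT pool of either segment. Its level was 175, 170, 156, 175 and 185 CPM in the cKO CTAL pools and 295, 151 and 217 CPM in the cKO MTAL pools, against 384 to 579 CPM in WT CTAL and 653 to 810 CPM in WT MTAL. The authors kept cKO pools for analysis partly on a low Cldn10 level, so this level is in part set by that choice and is given as a description. Cldn10 reads remained in every cKO pool, and the cKO segments overlapped in Cldn10 (log2 difference MTAL over CTAL 0.40 ± 0.17 SE, adjusted p = 0.245). Slc12a1, which encodes NKCC2, was between 11424 and 15526 CPM in the 8 cKO pools. Total counts per pool ran from 13275285 to 19608788 in cKO MTAL and from 19976489 to 60990195 in cKO CTAL. Single pools stood apart. Pool 16 held 620 CPM summed over 30 myeloid and neutrophil genes, against 200 to 277 CPM in the other 7 cKO pools, and 2653 CPM summed over 310 ribosomal protein pseudogenes, against 1481 to 1899 CPM. Pool 18 held 10984 CPM summed over 38 injury and repair genes, against 3065 to 6448 CPM in the other 7. Pool 20 held 551 CPM of the collecting duct water channel Aqp2, against 27.8 to 104 CPM. In CTAL pool 2, Slc12a3, the cotransporter of the distal convoluted tubule, reached 60.2 CPM against 1.78 to 11.9 CPM in the others. Reads of Xist were found at 6.5 to 8.77 CPM in 7 of the 18 pools, 1 of them a cKO CTAL pool and 4 of them WT MTAL pools, although all mice were labelled male. One WT CTAL pool carried a knock-out genotype label beside a WT pool name and was used as WT, where its Cldn10 level of 446 CPM lay.

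A gene was called when edgeR's quasi-likelihood test gave it a Benjamini-Hochberg adjusted p under 0.05 and its log2 fold change was at least 1 in size. Without Cldn10, 113 of 12044 genes were called (0.938%), of which 75 were higher in MTAL (0.623%) and 38 were lower (0.316%). With Cldn10, 270 of 11650 genes were called (2.32%), of which 76 were higher in MTAL (0.652%) and 194 were lower (1.67%). The cKO count was 515 without MTAL pool 18, 71 without CTAL pool 9, 75 without CTAL pool 7 and 388 by the DESeq2 likelihood ratio test. The comparisons differ in their numbers of pools, so these counts do not compare the genotypes. The difference between the segment differences was therefore tested itself, as an interaction of segment and genotype over all 18 pools. It passed at an adjusted p under 0.05 in 36 of 12586 genes (0.286%), with the cKO difference above the WT difference in 33 and below it in 3. That count ranged from 15 without CTAL pool 9 to 570 without MTAL pool 18, and among the WT pools it moved most without MTAL pool 13, to 137.

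Most segment differences of WT limbs kept their direction without Cldn10, and those toward the cortex were smaller in size. Of 194 genes lower in WT MTAL that were also tested in cKO, 172 were below 0 in cKO. Their median log2 difference was -1.43 in WT and -0.63 in cKO, beside 0.02 over all 11521 genes tested in both genotypes. Of 62 genes higher in WT MTAL, 58 were above 0 in cKO, with medians of 1.33 and 0.96. The genes were chosen by their WT difference, so these medians are a description. The interaction passed for 16 of the 194 and for 2 of the 62. Seen from the other side, the 68 genes higher in cKO MTAL had a median of 1.37 in cKO and 0.86 in WT, and the 35 genes lower in cKO MTAL had a median of -1.29 in cKO and -1.70 in WT. The genotypes share no pool. Across the 308 genes called in either genotype Pearson's r between the log2 differences was 0.83, and across all 11521 genes it was 0.31. These are descriptions over genes, which are not independent replicates.

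**Figure D1:**
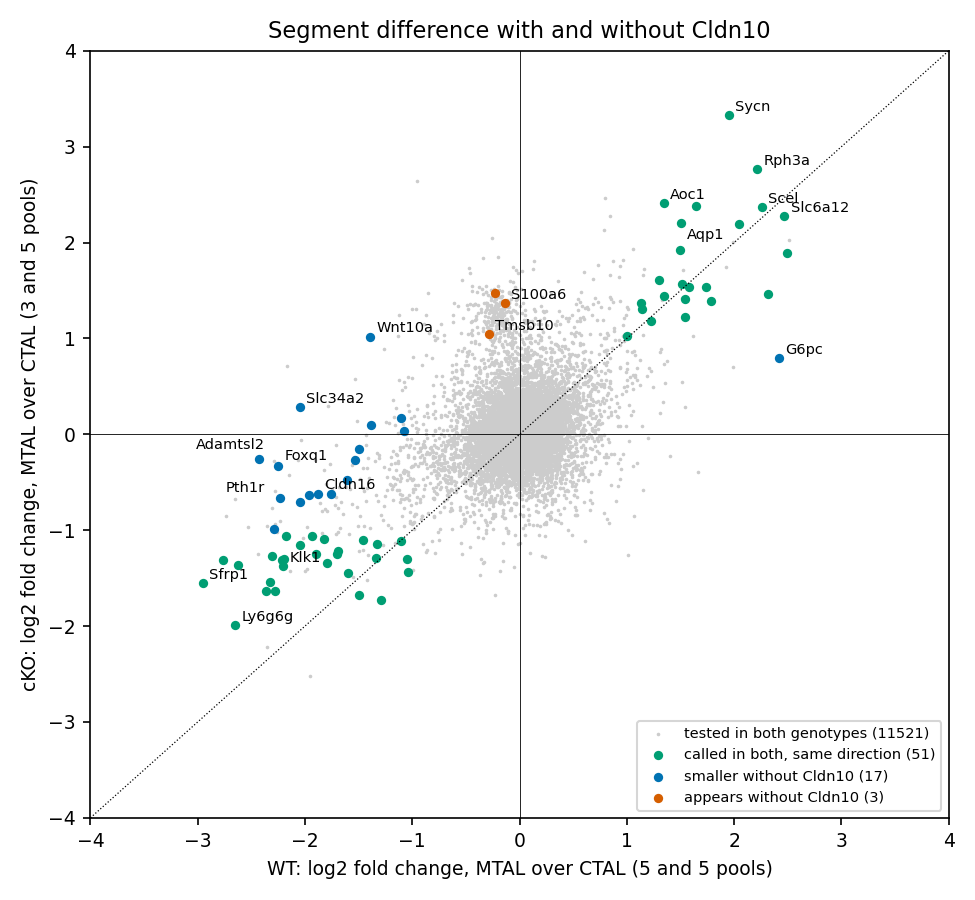
Log2 fold change of MTAL over CTAL in WT (horizontal axis) and in cKO (vertical axis) for the 11521 genes tested in both genotypes, each gene 1 point, with the line of equality dotted; points outside the axes are not drawn. The 51 genes called in both lie at the upper right and the lower left, 16 genes lower in WT MTAL lie above the line between -0.98 and 1.02 in cKO, and the 3 genes whose difference appeared without Cldn10 lie near 0 on the WT axis.

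Segment differences were called in the same direction in both genotypes for 51 genes, 23 higher and 28 lower in MTAL. The 23 higher genes had medians of 1.56 in cKO and 1.54 in WT. The 28 lower genes had medians of -1.31 in cKO and -1.92 in WT, and in 23 of the 28 the cKO difference was the smaller in size. For 1 of the 51, Aoc1, the interaction passed. Without MTAL pool 16 the count was 31.

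Among the genes that stayed higher in the medullary limb was Rph3a (chr5:120940499-121010092, minus strand), which encodes rabphilin, a Rab effector of regulated exocytosis. Its level was 5.12, 6.12, 5.38, 4.40 and 5.36 CPM in cKO CTAL and 41.0, 27.9 and 35.5 CPM in cKO MTAL, so that every MTAL pool was above every CTAL pool. The log2 difference was 2.76 ± 0.18 SE in cKO (edgeR adjusted p = 2.52e-05) and 2.21 in WT. Scel, which encodes the epithelial protein sciellin, was at 7.17 to 11.5 CPM in cKO CTAL and 59.6, 43.8 and 37.9 CPM in cKO MTAL. Its log2 differences of 2.37 in cKO and 2.26 in WT were close. Aoc1, the diamine oxidase that degrades histamine and putrescine, was the gene of this group whose interaction passed. It read 13.1 to 18.2 CPM in cKO CTAL and 70.9, 88.7 and 79.0 CPM in cKO MTAL (log2 2.41, against 1.34 in WT, interaction 1.03 ± 0.22 SE, adjusted p = 0.0493), and cKO MTAL lay above the 24.6 to 41.9 CPM of WT MTAL. Sycn, which encodes syncollin and overlaps Samd4b on the other strand, was under 1.3 CPM in every cKO CTAL pool and at 6.62, 9.68 and 9.29 CPM in cKO MTAL, so that it entered the test through the MTAL pools, and it stayed called in both genotypes in 10 of 18 fits that each left out 1 pool.

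Of 20 tested genes of organic osmolytes, urea transport and the response to tonicity, 7 were called higher in MTAL and none lower. Of all genes, 0.623% were called higher and 0.316% lower. The median log2 difference was 0.34 over the list, beside 0.03 over all tested genes. In 7 of the 20 tested genes the cKO segments did not overlap, beside 1220 of the 12044 genes (10.1%) in either direction. In all 7 the MTAL pools were the higher ones, as they were in 500 of the 12044 genes. These 7 were the called genes, and a call in these same pools favours segments that do not overlap. In WT, 3 of 20 were called higher, beside 0.652% of all genes, and the interaction passed for none of the list. Slc6a12 (chr6:121343076-121365775, plus strand), the betaine transporter, read 2.97, 3.90, 3.30, 2.24 and 3.66 CPM in cKO CTAL and 12.1, 13.8 and 19.4 CPM in cKO MTAL. This was a log2 difference of 2.28 ± 0.27 SE (edgeR adjusted p = 0.000958), against 2.47 in WT. Slc14a1, the urea transporter UT-B, was called in both genotypes at low levels (0.761 to 1.78 CPM in cKO CTAL and 5.22, 4.59 and 3.26 CPM in cKO MTAL). It entered the test through the MTAL pools, where it is high, and stayed called in both genotypes in 11 of 18 fits that each left out 1 pool. The filter was also met through MTAL for Slc14a2. Slc14a2, the UT-A urea transporter, read 2.45 to 4.25 CPM in cKO CTAL and 18.8, 10.7 and 7.34 CPM in cKO MTAL. Its log2 difference was 2.0 in cKO and 1.99 in WT, where 1 CTAL pool reached 46.9 CPM and the test did not pass (adjusted p = 0.083). Ranbp3l, a nuclear export factor, had log2 differences of 1.44 in cKO and 1.34 in WT. The chaperones Cryab, Hspa1a and Hspa1b, which are also heat shock genes, were the other 3 called members, and Cryab overlaps Hspb2 on the other strand while the Hspa1 genes are near-identical copies.

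Markers of the thin limb, which adjoins the MTAL in the inner stripe, moved in the same direction. Summed over 17 thin limb genes the level was 486 to 594 CPM in cKO MTAL and 254 to 334 CPM in cKO CTAL, and no other list of other-cell markers had non-overlapping cKO segments. Of 14 tested thin limb genes 6 were called higher in cKO MTAL (Aoc1, Aqp1, Bst1, Cldn1, Cryab and Slc14a2), beside 0.623% of all genes, and 2 of 11 in WT, beside 0.652%, with median log2 differences of 1.39 and 0.41. Bst1 and Slc14a2 met the filter through the MTAL pools alone. None of the 17 was at 0 in every cKO pool. Aqp1 (chr6:55336432-55348555, plus strand), the water channel of the thin descending limb and the proximal tubule, read 28.7, 13, 11.9, 17.3 and 13.6 CPM in cKO CTAL and 54.8, 75.2 and 99.3 CPM in cKO MTAL. The log2 difference was 2.21 ± 0.27 SE in cKO (edgeR adjusted p = 0.00146) and 1.5 in WT. In bulk RNA a larger share of thin limb cells and more RNA per thick limb cell cannot be told apart, and the part of adherent thin limb in these differences was not tested.

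**Figure D2:**
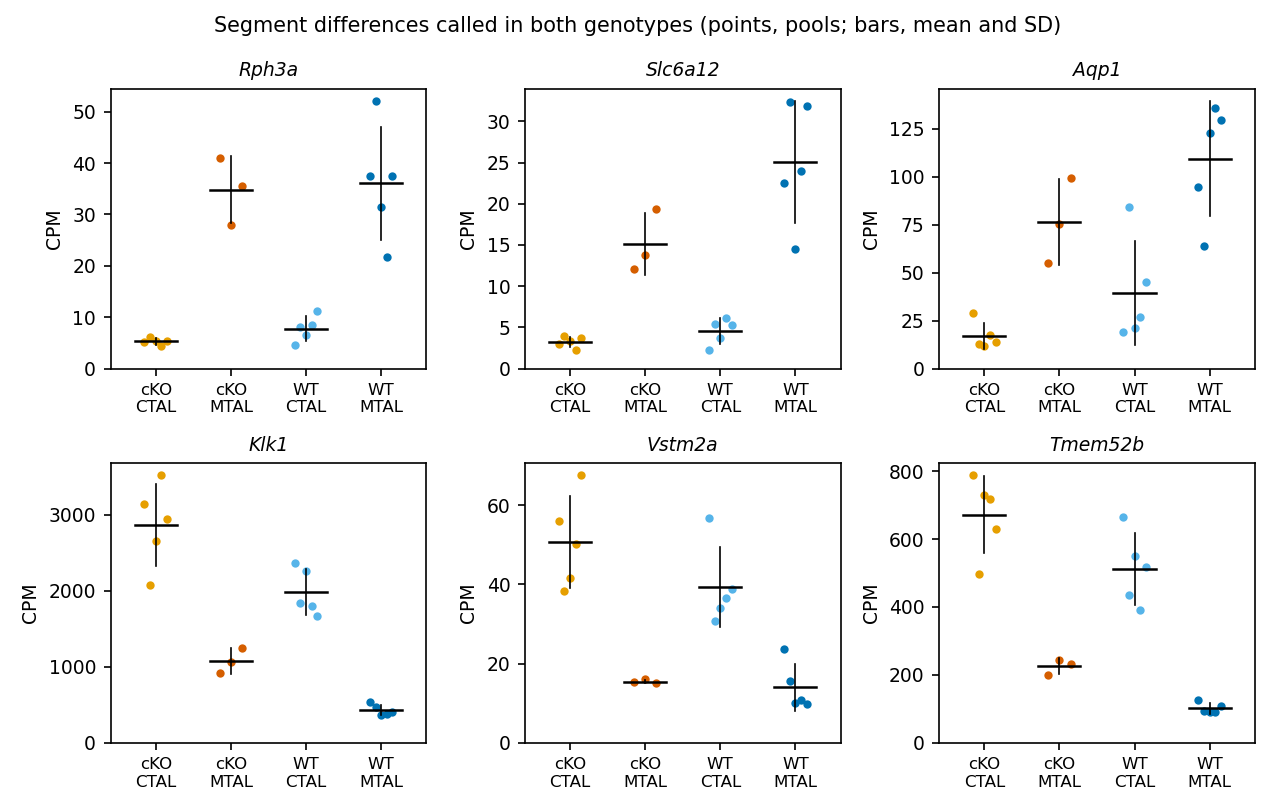
CPM in each pool of 6 genes called in the same direction in both genotypes, with points for pools and bars for the mean and SD (3 cKO MTAL pools and 5 pools in each other group). Rph3a, Slc6a12 and Aqp1 are higher in MTAL in both genotypes, and Klk1, Vstm2a and Tmem52b are lower, with every cKO MTAL pool on 1 side of every cKO CTAL pool.

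Tissue kallikreins remained lower in the medullary limb. Klk1 (chr7:44225360-44229618, plus strand), a serine protease secreted by the connecting tubule and distal nephron, read 3147, 2077, 2651, 3521 and 2944 CPM in cKO CTAL and 921, 1058 and 1253 CPM in cKO MTAL. The lowest cortical pool was above the highest medullary pool. The log2 difference was -1.37 ± 0.17 SE in cKO (edgeR adjusted p = 0.00153) and -2.20 in WT, with an interaction of 0.79 that did not pass (adjusted p = 0.0752). Of the 4 tested genes of the kallikrein and renin list, 3 were called lower in cKO and 4 in WT. Of all genes, 0.316% were called lower in cKO and 1.67% in WT. The list medians were -1.40 in cKO and -2.20 in WT. Klk1b5 and Klk1b11 are near-identical to Klk1, so their reads may be shared. Ren1, the fourth, read 7.92 to 39.6 CPM in cKO CTAL and 6.76, 9.03 and 3.85 CPM in cKO MTAL, which overlapped (log2 -1.42, adjusted p = 0.152).

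Other cortical genes also stayed. Tmem52b (chr6:129512555-129519227, plus strand), a membrane protein of little known function, read 788, 497, 729, 717 and 629 CPM in cKO CTAL and 199, 244 and 232 CPM in cKO MTAL (log2 -1.54 in cKO and -2.33 in WT). Vstm2a, which encodes a secreted immunoglobulin-domain protein, was at 38.4 to 67.6 CPM in cKO CTAL and 15.4, 16 and 15 CPM in cKO MTAL. Its log2 difference of -1.68 in cKO was not smaller in size than the -1.5 of WT. Sfrp1, a secreted Wnt inhibitor, had the most negative WT difference of those called in both (log2 -2.95) and was at -1.55 ± 0.33 SE in cKO, where cKO CTAL pools ran from 316 to 997 CPM and the MTAL pools read 166, 146 and 278 CPM. Ly6g6g read 10.5 to 17.9 CPM in cKO CTAL and 4.19, 5.04 and 2.13 CPM in cKO MTAL, the most negative cKO difference of the 51 (log2 -1.99). With fewer than 3 cKO MTAL pools at 3 CPM, Ly6g6g entered the test through the CTAL pools, where it is high. Slc9a2, the sodium-hydrogen exchanger NHE2, and Car8, a carbonic anhydrase-related protein, were the 2 acid-base genes called lower of 22 tested. Of all genes, 0.316% were called lower. Both were called in WT. Car8 had fewer than 3 cKO MTAL pools at 3 CPM and entered the test through the CTAL pools, where it is high. Slc9a2 read 74.3 to 86.2 CPM in cKO CTAL and 43.4, 26.8 and 36.6 CPM in cKO MTAL. The chemokine Cxcl12 (log2 -1.45) and the fibrillar collagen Col5a2 (-1.22) were further members of this group. Egf, the growth factor made in large amount by the distal nephron, missed the size threshold in cKO by little (log2 -0.93 ± 0.18 SE, adjusted p = 0.0248, against -1.02 in WT), with 18227 to 27291 CPM in cKO CTAL and 12665, 9444 and 15270 CPM in cKO MTAL.

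The segment difference was smaller without Cldn10 for 17 genes, which were called in WT and passed the interaction in the opposite direction. Of these, 16 were lower in WT MTAL, with a median log2 difference of -1.81 in WT and -0.30 in cKO. In all 16 the 3 cKO MTAL pools were above each of the 5 WT MTAL pools, and in 14 the mean was also higher in cKO CTAL than in WT CTAL. The 16 were chosen in these same pools by a low WT MTAL level and the interaction. That choice favours cKO MTAL lying above WT MTAL, so the count is a description. In cKO, 11 of the 16 were still below 0, and 3 of the 17 still passed an adjusted p under 0.05 (Cldn16, Pigr and C130074G19Rik). Leaving out 1 pool at a time, 12 of the 17 kept this result in all 18 fits (the exceptions were Cd9, G6pc, Pigr, Tubb2b and Wnt10a), and the count was 37 without MTAL pool 18, 33 without MTAL pool 16, 32 without WT MTAL pool 13 and 31 without WT CTAL pool 3. None of the 17 passed when the 7 pools with Xist reads were left out, a fit with 1 WT MTAL pool, and 4 genes met these criteria by limma on log2(TPM + 1).

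Cldn16 (chr16:26463135-26482765, plus strand), the claudin of the divalent cation pathway, read 106, 105, 96.1, 123 and 124 CPM in cKO CTAL and 62.8, 85.7 and 62.9 CPM in cKO MTAL. Its segments did not overlap in either genotype. The log2 difference went from -1.88 in WT to -0.62 ± 0.13 SE in cKO (edgeR adjusted p = 0.0398), an interaction of 1.23 ± 0.16 SE (adjusted p = 0.00121).

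Pth1r (chr9:110722085-110747145, minus strand), the parathyroid hormone receptor, read 468, 454, 501, 434 and 388 CPM in cKO CTAL and 185, 338 and 303 CPM in cKO MTAL. The WT ranges were 195 to 305 CPM in CTAL and 43.6 to 68.4 CPM in MTAL, so each cKO segment was above the same WT segment, and cKO MTAL overlapped WT CTAL. The interaction was 1.53 ± 0.23 SE (edgeR adjusted p = 0.00356), and Pth1r overlaps Myl3 on the other strand. Foxq1 (chr13:31556134-31560976, plus strand), a forkhead transcription factor, read 98.2, 91.2, 91.8, 76.4 and 112 CPM in cKO CTAL and 54.9, 59.8 and 102 CPM in cKO MTAL, which overlapped. WT MTAL held 17.1 to 24.7 CPM, and the interaction was 1.88 ± 0.25 SE (adjusted p = 0.00121). WT CTAL, with 72.7 to 128 CPM, overlapped cKO CTAL.

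In a further set of these genes, all but G6pc, the cKO segments overlapped. Slc34a2, the sodium phosphate cotransporter NaPi-IIb, read 46.6 to 82.3 CPM in cKO CTAL and 42.7, 77.5 and 122 CPM in cKO MTAL, with log2 differences of 0.28 in cKO and -2.05 in WT (interaction 2.29 ± 0.37 SE). Adamtsl2, a secreted matrix glycoprotein that binds latent TGF-beta binding protein, read 16.6 to 49.6 CPM in cKO CTAL and 34.6, 22.6 and 36.6 CPM in cKO MTAL, against 5.19 to 14.6 CPM in WT MTAL. Mfge8, a milk fat globule protein that tags dying cells, was at 145 to 172 CPM in cKO CTAL and 134, 176 and 173 CPM in cKO MTAL (log2 0.03 in cKO and -1.08 in WT). Wfdc2, which encodes the secreted protein HE4, and Slc22a17, the lipocalin-2 receptor, went from -1.53 to -0.26 and from -1.5 to -0.15. Wnt10a, a Wnt ligand, and G6pc had the highest and the lowest interaction of the 17. Wnt10a was lower in WT MTAL (log2 -1.39) and at 15.9, 35.3 and 22.4 CPM in cKO MTAL against 7.43 to 19.6 CPM in cKO CTAL (log2 1.02, adjusted p = 0.109). G6pc, the glucose-6-phosphatase that completes gluconeogenesis, was the only one of the 17 higher in WT MTAL. It held 44.3 to 93.1 CPM in WT MTAL but 14, 6.81 and 6.45 CPM in cKO MTAL, beside 4.46 to 6.21 CPM in cKO CTAL (log2 0.80 in cKO and 2.42 in WT, interaction -1.67 ± 0.36 SE).

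Umod, which encodes the uromodulin that the limb secretes into urine, passed the interaction without reaching the size threshold in either genotype. It read 47442 to 55317 CPM in cKO CTAL and 42435, 44715 and 47713 CPM in cKO MTAL, whereas WT MTAL held 23816 to 31790 CPM against 44543 to 51265 CPM in WT CTAL. The log2 difference was -0.13 ± 0.11 SE in cKO and -0.78 in WT (interaction 0.61, edgeR adjusted p = 0.045).

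**Figure D3:**
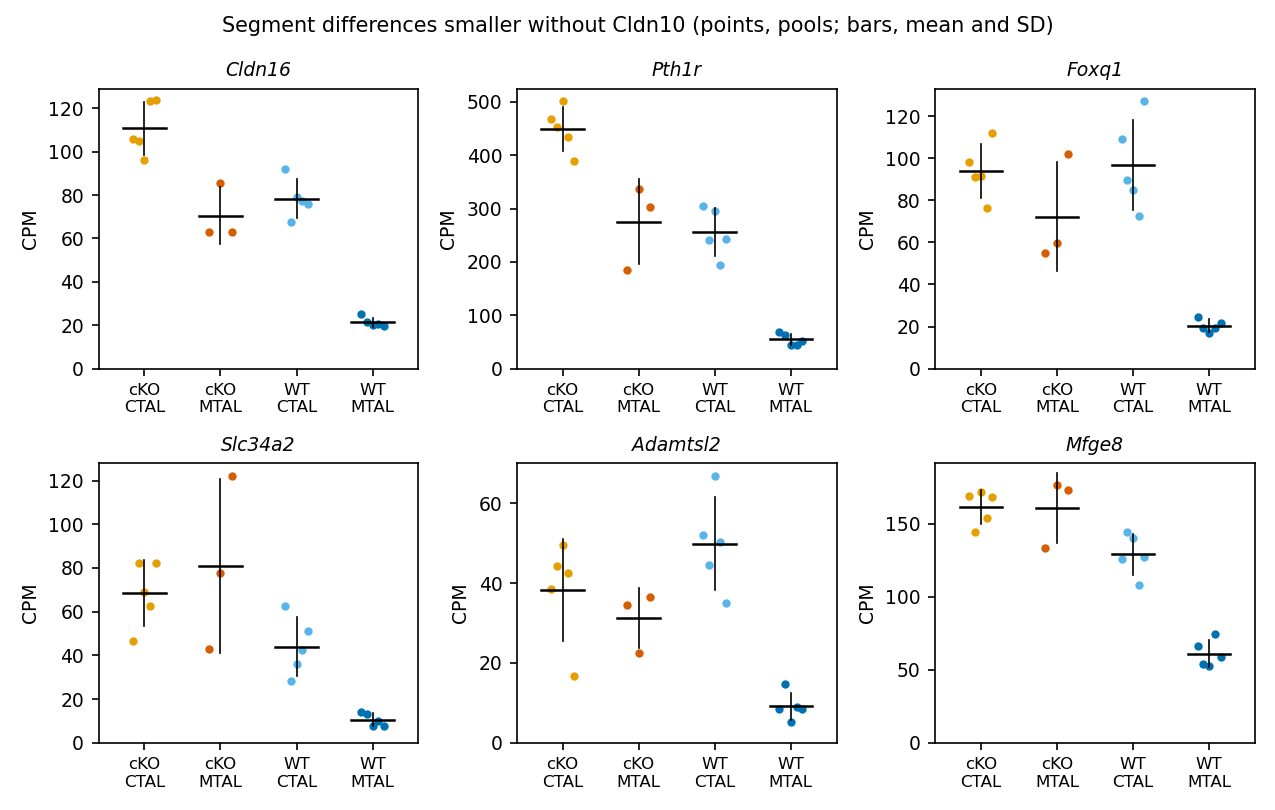
CPM in each pool of 6 genes whose segment difference was smaller without Cldn10, with points for pools and bars for the mean and SD (3 cKO MTAL pools and 5 pools in each other group). In all 6 genes the cKO MTAL pools lie above the 5 WT MTAL pools, which the choice of the genes in these same pools favours. For Foxq1, Slc34a2, Adamtsl2 and Mfge8 the cKO MTAL pools overlap the cKO CTAL pools.

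Of 17 tested genes of calcium and magnesium control, none was called in cKO, beside 0.938% of all genes, and 7 were called lower in WT MTAL, beside 1.67%, with medians of -0.21 and -0.83. The cKO median was -0.42 without MTAL pool 20, and 1 gene was called lower without pool 18 or pool 20 and 1 higher without pool 16. Summed over the list, cKO MTAL held 11736 to 17616 CPM and cKO CTAL 21454 to 30269 CPM, which did not overlap. Most of this sum was Egf alone, with 9444 to 15270 CPM in cKO MTAL and 18227 to 27291 CPM in cKO CTAL. The sum therefore does not describe the list as a whole. The calcium-sensing receptor Casr read 1042 to 1158 CPM in cKO CTAL and 696, 795 and 802 CPM in cKO MTAL, a smaller but passing difference (log2 -0.47 ± 0.10 SE, edgeR adjusted p = 0.031) beside -0.99 in WT, and the interaction did not pass (0.49, adjusted p = 0.0854). The vitamin D receptor Vdr and the FGF23 co-receptor Kl had log2 differences of -0.52 and -0.46 in cKO that did not pass and of -1.16 and -1.10 in WT that did, with interactions that did not pass (adjusted p = 0.0967 and 0.0626). Of 18 genes of sodium chloride transport, none was called in cKO, and the list median was 0.00. Fxyd2, the gamma subunit of the sodium pump, had a log2 difference of 0.68 in cKO and 1.0 in WT. The subunit Bsnd (barttin) and the potassium channel Kcnj1 (ROMK) differed by -0.07 and -0.06 in cKO and passed in neither genotype. In the study's own list of genes likely to be expressed in the thick limb, 4 of 214 tested genes were called higher and 2 lower in cKO. Of all genes, 0.623% were called higher and 0.316% lower in cKO. In WT, 3 of 218 were called higher and 16 lower, beside 0.652% and 1.67% of all genes. The genotypes differ in their numbers of pools, so these counts do not compare them. Of that list, Cldn16, Foxq1 and Pth1r were among the genes with a smaller difference, and Aqp1, Car8, Slc14a1 and Slc9a2 were among those called in both.

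Of 12 tested claudins, Cldn1 alone was called, at 2.57 to 5.16 CPM in cKO CTAL and 15, 10.9 and 13.4 CPM in cKO MTAL (log2 1.68 ± 0.27 SE, edgeR adjusted p = 0.00838), while WT MTAL held 1.65 to 7.12 CPM. Its interaction of 1.66 did not pass (adjusted p = 0.107). Cldn19, the partner of claudin-16, was at 431 to 498 CPM in cKO CTAL and 435, 534 and 576 CPM in cKO MTAL, which overlapped (log2 0.20). Cldn14, which blocks the claudin-16 and claudin-19 pathway, was decided by 1 pool. It read 18.4, 19.3 and 153 CPM in cKO MTAL against 14.9 to 35.4 CPM in cKO CTAL (log2 1.30, adjusted p = 0.266).

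A segment difference appeared without Cldn10 for 3 genes, which were called in cKO and passed the interaction in the same direction. These calls were unstable: leaving out 1 pool at a time, S100a6 and Tmsb10 kept this result in 5 of 18 fits and Gm6807 in 4, and none of the 3 kept it when any single cKO CTAL pool or MTAL pool 16 was left out. S100a6, a calcium-binding protein, read 35.4, 43.3, 34.4, 39.5 and 44.1 CPM in cKO CTAL and 167, 51.4 and 78.9 CPM in cKO MTAL (log2 1.37 ± 0.28 SE, edgeR adjusted p = 0.0308, interaction 1.47). Tmsb10, an actin-sequestering thymosin, read 46.1 to 59.4 CPM in cKO CTAL and 168, 72.9 and 80.8 CPM in cKO MTAL (log2 1.04, interaction 1.29). For both genes all 3 medullary pools were above the 5 cortical pools. The pseudogene-type locus Gm6807 read 39.6, 9.58 and 29.2 CPM in cKO MTAL and overlapped cKO CTAL. By the DESeq2 likelihood ratio test 136 genes met the same criteria, and 15 did without pool 16, while without pool 18 the quasi-likelihood test gave 268. In the myeloid and neutrophil list, summed highest in pool 16, 24 genes were tested and none was called, beside 0.938% of all genes. The median log2 difference was 1.22, and 0.44 without pool 16. Without pool 18, 13 of 23 were called higher and 1 lower, in a fit that called 439 of all 11933 genes higher. The transcription factor Spi1 of that list passed the interaction (1.84, adjusted p = 0.0398) with 63.9, 16.5 and 23.5 CPM in cKO MTAL. The part of myeloid cells in S100a6 and Tmsb10 was not tested. Annotated pseudogenes had a median of 0.55 over 612 tested, with 2 called higher and 1 lower, and by DESeq2 141 were called higher, or 4 without pool 16.

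A further 10 genes called in cKO lay under the filter of the WT comparison, and the interaction passed for 2 of them, in which the difference was far larger in cKO. Psca (chr15:74714839-74717069, plus strand), which encodes prostate stem cell antigen, a surface protein of urinary and other epithelia, read 2.77, 1.48, 0.812, 0.953 and 3.66 CPM in cKO CTAL and 15.9, 30.5 and 17.1 CPM in cKO MTAL. Outside cKO MTAL a single pool, CTAL pool 21, reached 3 CPM, so Psca entered the test through the pools where it is high. Of the 75 genes called higher, 12 had fewer than 3 cKO CTAL pools at 3 CPM. Of the 38 called lower, 6 had fewer than 3 cKO MTAL pools at 3 CPM. For Psca, the WT pools of both segments stayed between 0.509 and 2.23 CPM. The log2 difference in cKO was 3.49 ± 0.45 SE (edgeR adjusted p = 0.00198), and the interaction was 3.07 ± 0.65 SE (adjusted p = 0.045). Gm42793 read 7.79, 12.6 and 22 CPM in cKO MTAL and 1.76 to 4.77 CPM in cKO CTAL, but it lies within Spp1, the osteopontin gene, on the same strand, so its reads cannot be assigned with certainty. The injury and repair list held Psca, S100a6, Hbegf, Nupr1, Cdkn2b and Timp2 as its 6 called genes of 31 tested, beside 0.623% of all genes called higher, with a list median of 0.98 in cKO and -0.03 in WT. Without pool 18, 14 were called higher, in a fit that called 439 of all 11933 genes higher, and the median was 0.60. Nupr1, a stress-induced nuclear protein, and Cdkn2b, a cell cycle inhibitor, were called in both genotypes, so that they belong to the differences that remained. Nupr1 read 2.13 to 5.32 CPM in cKO CTAL and 13.7, 21.5 and 13.4 CPM in cKO MTAL.

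Immediate early genes, which are transcribed within minutes of a stimulus, were higher in the cKO medullary limb as a group. Of 30 tested, 18 were called higher and none lower, beside the 0.623% of all genes called higher. In 23 of the 30 the cKO MTAL pools were above every cKO CTAL pool, beside 500 of all 12044 genes. The list median was 1.23 in cKO and 0.59 in WT, where 1 of 29 was called higher and 1 lower. Summed over 35 genes, the level was 4738, 4683 and 4852 CPM in the cKO MTAL pools and 1612 to 2572 CPM in cKO CTAL. WT pools read 2118 to 4143 CPM in CTAL and 2843 to 4237 CPM in MTAL, apart from pool 11, which read 9981 CPM. The cKO segments did not overlap and the cKO MTAL pools were above 4 of the 5 WT MTAL pools, while the WT segments overlapped. Fos read 125, 207, 186, 168 and 176 CPM in cKO CTAL and 518, 595 and 648 CPM in cKO MTAL (log2 1.81 ± 0.15 SE, edgeR adjusted p = 0.000105). Junb read 114 to 209 CPM in cKO CTAL and 565, 454 and 531 CPM in cKO MTAL (log2 1.76), and its locus overlaps Prdx2 on the other strand. Socs3, a feedback inhibitor of cytokine signalling, was the member called in both genotypes, with 20.1 to 29.7 CPM in cKO CTAL and 79.5, 199.7 and 119 CPM in cKO MTAL (log2 2.38). It stayed called in both in 11 of 18 fits that each left out 1 pool, and not without WT MTAL pool 11. Socs3 read 314 CPM in that pool, against 28.9 to 79.8 CPM in the other WT MTAL pools. By DESeq2 and by limma it was not called in both. The lowest cKO difference of the list was that of Ier3, which was lower in WT MTAL and overlapped in cKO (log2 -0.56).

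Whether these genes differ more between segments without Cldn10 depended on a single WT pool. With all pools the interaction passed for none of 31 tested members. Without WT MTAL pool 11 it passed for 5, at log2 values of 1.28 for Jun, 1.38 for Fosb, 1.44 for Junb, 1.51 for Fos and 1.33 for Egr1, and the WT median fell from 0.59 to 0.28. The heat shock list had 3 genes called higher of 19, Hspa1a, Hspa1b and Cryab, beside 0.623% of all genes. Its median was 0.17. Hspa1a read 74.4 to 99.2 CPM in cKO CTAL and 184, 197 and 272 CPM in cKO MTAL. The time between kidney removal and lysis, during which such genes can rise, is not given for the pools.

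**Figure D4:**
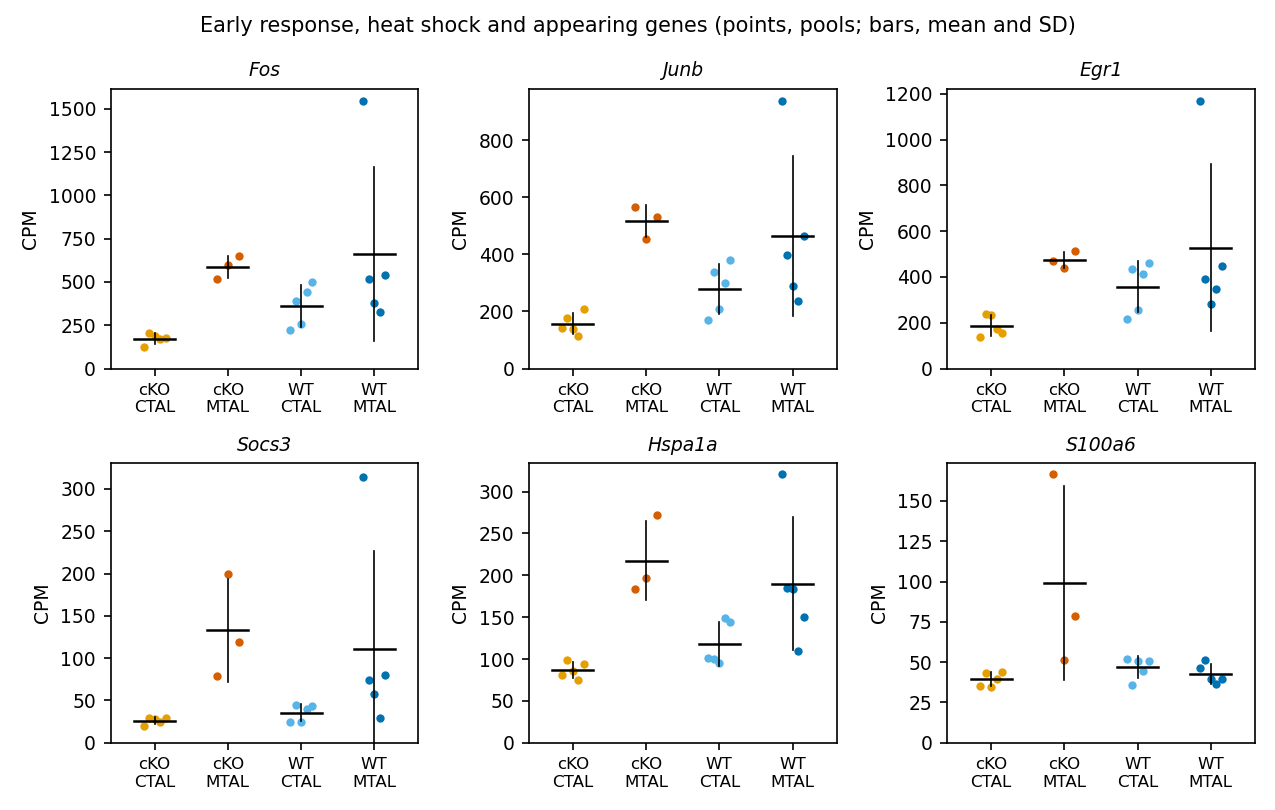
CPM in each pool of 4 immediate early genes, the heat shock gene Hspa1a and S100a6, with points for pools and bars for the mean and SD (3 cKO MTAL pools and 5 pools in each other group). The 3 cKO MTAL pools lie above the 5 cKO CTAL pools in all 6 genes, 1 WT MTAL pool (pool 11) is the highest WT MTAL pool in the first 5, and pool 16 is the highest cKO MTAL pool for S100a6.

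The 250 bases before the RefSeq start (GRCm38.p6) of 4 of these genes are shown because the genes moved together and carried high levels. The sequences run 5′ to 3′ along the gene's strand, and capitals mark TGACG or CGTCA, the core of the element bound by CREB and ATF factors, and TGANTCA, the element bound by AP-1, where either occurs.
Fos (chr12:85473640-85473889, plus strand): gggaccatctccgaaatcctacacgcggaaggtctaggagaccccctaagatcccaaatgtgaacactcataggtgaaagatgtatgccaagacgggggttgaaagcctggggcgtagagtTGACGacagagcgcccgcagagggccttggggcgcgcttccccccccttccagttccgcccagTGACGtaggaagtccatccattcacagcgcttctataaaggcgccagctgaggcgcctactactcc
Fosb (chr7:19310046-19310295, minus strand): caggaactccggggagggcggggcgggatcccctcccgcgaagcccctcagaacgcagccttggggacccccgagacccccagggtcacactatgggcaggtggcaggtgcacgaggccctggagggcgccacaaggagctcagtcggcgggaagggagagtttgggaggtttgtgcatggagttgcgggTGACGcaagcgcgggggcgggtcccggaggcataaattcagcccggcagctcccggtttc
Jun (chr4:95052223-95052472, minus strand): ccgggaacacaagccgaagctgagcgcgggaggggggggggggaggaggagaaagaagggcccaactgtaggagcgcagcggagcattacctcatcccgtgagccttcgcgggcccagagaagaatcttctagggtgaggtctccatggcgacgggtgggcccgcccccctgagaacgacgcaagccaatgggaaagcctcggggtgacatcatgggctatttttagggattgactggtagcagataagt
Junb (chr8:84978749-84978998, minus strand): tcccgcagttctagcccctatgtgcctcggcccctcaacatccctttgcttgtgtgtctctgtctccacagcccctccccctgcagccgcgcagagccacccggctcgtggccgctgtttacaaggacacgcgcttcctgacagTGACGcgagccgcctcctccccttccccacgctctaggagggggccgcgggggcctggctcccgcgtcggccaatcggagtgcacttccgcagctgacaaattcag
Of the 18 immediate early genes called higher, 14 had a promoter in the table, and 8 of these (57.1%) held TGACG on either strand, against 17.8% of 32851 promoters of the same length. TGANTCA was in 0 of the 14 and in 6.75% of all promoters. The CArG box, the element of serum response factor, was in 1 of the 14 (Zfp36, 7.14%) against 1.47% of all. These are matches of letters in a short window and not measurements of binding.

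Summed markers of other cells overlapped between the cKO segments for all lists but the thin limb. Proximal tubule genes summed to 213 to 831 CPM in cKO MTAL and 98.0 to 803 CPM in cKO CTAL, with the highest values in MTAL pool 18 and CTAL pool 2. Principal cell genes summed to 463 to 1620 CPM in cKO MTAL and 577 to 1048 CPM in cKO CTAL. Endothelial genes summed to 371 to 557 CPM in cKO MTAL and 472 to 593 CPM in cKO CTAL, although Cavin2, a caveolar protein, was called lower in MTAL (log2 -1.14, 33.0 to 50.7 CPM in cKO CTAL against 16.8, 19.8 and 22.2 CPM). Macula densa genes summed to 547 to 624 CPM and 444 to 682 CPM, and of 11 tested Ranbp3l was called higher and Cxcl12 lower. No list had a marker at 0 in every cKO pool, and of 15 lymphocyte genes 10 were under 1 CPM in all of them. Cd36, a fatty acid transporter, was the 1 called gene of 26 tested for fatty acid oxidation and gluconeogenesis (log2 -1.08). No ribosomal protein gene of 80 tested was called, and none of 26 for hypoxia and glycolysis, beside 0.938% of all genes. The hypoxia and glycolysis genes summed to 7969 to 8672 CPM in cKO MTAL and 6716 to 7810 CPM in cKO CTAL, which did not overlap. In TPM the sums overlapped, with 5477 to 6451 in cKO MTAL and 5008 to 5856 in cKO CTAL.

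**Figure D5:**
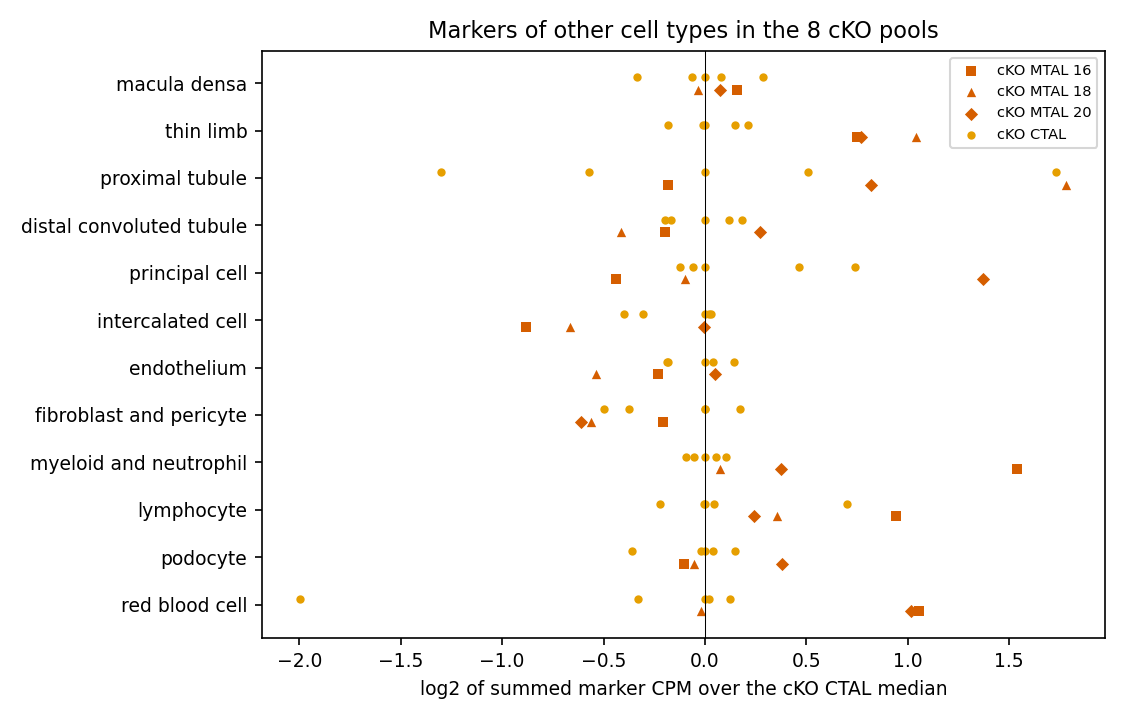
Log2 of the summed CPM of 12 marker lists in each cKO pool over the median of the 5 cKO CTAL pools (horizontal axis), with 1 symbol for each cKO MTAL pool and circles for cKO CTAL. The thin limb list is the one whose 3 MTAL pools all lie apart from the CTAL pools, and pool 16 lies highest for the myeloid list, pool 18 for the proximal list and pool 20 for the principal cell list.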

How the data were processed

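RNA of dissected limb pools was sequenced as paired ends from a strand-specific poly-A library (SureSelect kit). The authors trimmed reads, aligned them to mm10 with DRAGEN against a gencode annotation and deposited expected counts per gene, whose decimals show estimation, and TPM. GEO's processing notes also name FastQC, Trimmomatic and Picard. How counting treated strand and multi-mapped reads is not given in the sources used here, so overlapping genes and near-identical copies are uncertain. Whole-number counts had been assumed in planning, and the deposited expected counts were rounded before testing. Totals were 10824328 to 62339991 counts per pool.

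Genes with 3 CPM in 3 pools (cKO, interaction) or 5 pools (WT) were tested with edgeR 4.0.16 in R 4.3.3 (TMM factors, quasi-likelihood F test, Benjamini-Hochberg adjustment), separately in cKO and WT and as an interaction over 18 pools. SE is the log2 difference divided by the square root of F. CPM values are on TMM-scaled totals. DESeq2 1.42.0, limma 3.58.1 on log2(TPM + 1) of the deposited TPM, other scalings, no filter, pools left out and a shared fit were the alternatives. On simulated counts with 200 changed genes, the cKO test recovered 181 of the 192 tested (94.3%). Samples were grouped by their labels. The replicates were separate mice, and no replicate pair agreed within sampling noise.

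Members and lists were chosen with earlier results of these data known. Text genes were the 8 with the largest called change per direction without overlap, up to 6 per class and direction, list members and genes the study measures singly. C130074G19Rik, Fxyd2, Gm42793, Gm6807, Mfge8, Slc22a17, Wfdc2 and Wnt10a were chosen after their values were seen. Some measured genes are not reported here and were left out of the lists. Genes were located with gencode vM21 on GRCm38, which held 99.5% of the table's identifiers, and promoters come from RefSeq.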

Additional observations from a re-analysis of the deposited data

Results flagged for a closer look

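Single pools lay far from the other pools of their group, by Dixon's criterion, which chance meets in about 1 of 20 groups. In WT MTAL pool 11 the immediate early genes Fos (1543 CPM), Fosb (665 CPM), Jun (1156 CPM), Egr1 (1170 CPM), Zfp36 (988 CPM) and Socs3 (314 CPM) were high, together with the growth factor Hbegf (68.2 CPM). Dtx1 (3.0 CPM), Aqp2 (147 CPM) and the summed principal cell markers (749 CPM) were high in the same pool. Among the cKO CTAL pools, pool 2 was high in Ren1 (39.6 CPM) and Slc12a3 (60.2 CPM), pool 4 in Cdkn2b (9.07 CPM) and pool 21 in Tubb2b (98.4 CPM) and summed lymphocyte markers (9.52 CPM), while pool 9 was low in Kl (615 CPM). In WT CTAL, pool 3 was high in Slc14a2 (46.9 CPM) and Bst1 (6.59 CPM), pool 8 in Wnt10a (7.76 CPM) and pool 22 in summed proximal tubule markers (407 CPM). In WT MTAL, pool 13 was high in Psca (2.23 CPM), Serpina10 (6.78 CPM), Cldn14 (5.01 CPM) and summed red blood cell markers (28.7 CPM) and low in summed thin limb markers (424 CPM), and pool 15 was low in Bsnd (146 CPM).

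The segment difference itself differed between the genotypes for 24 of the genes examined by name, by the edgeR interaction test. Differences that were smaller in cKO had log2 interactions of 2.37 for Wnt10a, 2.29 for Slc34a2, 2.14 for Adamtsl2, 1.88 for Foxq1, 1.53 for Pth1r, 1.44 for Tubb2b, 1.31 for Slc22a17, 1.30 for Ggt1, 1.28 for Pigr, 1.24 for Eva1b, 1.23 for Wfdc2, 1.23 for Cldn16, 1.11 for Cd9, 1.09 for C130074G19Rik, 1.07 for Mfge8 and 0.61 for Umod, and of -1.67 for G6pc. Differences that appeared or grew in cKO had interactions of 3.07 for Psca, 3.06 for Gm42793, 1.84 for Spi1, 1.66 for Gm6807, 1.47 for S100a6, 1.29 for Tmsb10 and 1.03 for Aoc1.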

How the results depend on the processing

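The cKO count of 113 genes was 404 by the edgeR likelihood ratio test, 388 by DESeq2 with TMM factors, 364 by DESeq2 with its own factors, 344 with no filter, 354 in a shared fit of all 18 pools, 63 by limma on TPM and 211 by adjusted p alone, and the WT count of 270 was 800 by adjusted p alone. In the same order of tools (likelihood ratio, DESeq2 with TMM, DESeq2 alone, limma) the interaction count of 36 was 337, 353, 387 and 7, the 3 appearing genes were 132, 136, 136 and 0, and the 17 with a smaller difference were 52, 51, 57 and 4. The 51 called in both were 78 by the likelihood ratio test and 32 by limma. With no filter the interaction gave 79 and 36 genes appeared. With total counts as scaling 5 appeared and 26 were smaller. Without the Xist pools the interaction, the appearing and the smaller differences were 0, with 1004 of 12224 genes at an unadjusted p under 0.05 by edgeR. The 46 list members called were 95 by the likelihood ratio test, 91 and 89 by DESeq2, 87 with no filter and 78 in the shared fit. DESeq2 without MTAL pool 16, chosen after seeing the data, gave 210 cKO calls, 203 interactions, 15 appearing and 58 smaller. Leaving out 1 pool at a time gave 71 to 515 cKO calls, 201 to 277 WT calls, 15 to 570 interactions, 31 to 57 called in both, 0 to 268 appearing, 12 to 37 smaller, 37 to 82 list members and 1 to 4 marker lists without overlap. The share of cKO calls higher in MTAL was 66.4%, 80.9% by DESeq2 with TMM and 85.2% without pool 18. Of 2190 values for 111 named genes 2030 kept their side of the threshold, 113 no longer passed and 47 newly passed. No value that passed in the main or the alternative fit changed sign. For values that passed in neither, the sign was not counted. Of 1043 interaction values for 36 genes 761 kept direction and side of the threshold, 282 no longer passed and 0 changed sign. The causes were not tested. No paired analysis was possible because the groups share no replicate numbers.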
